A study of Arabidopsis thaliana with 8 samples.

Results

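The 10 genes described here encode the core subunits of Polycomb repressive complex 2 (PRC2) in Arabidopsis, the reader of its mark and VERNALIZATION1 (VRN1). They were chosen by name, with earlier results of these data known, and are 10 of the 32222 nuclear genes counted. The study had already reported VRN1 expression as enriched in the suspensor in these data. It also reported BPC5 and BPC7 as enriched in suspensors and FUS3 in the basal lineage. By its enrichment scores it described Polycomb components as tending to differ between suspensor and embryo proper. Those scores combine level and detection relative to other clusters and are another measure than the tests below. The data are Smart-seq2 libraries of single nuclei from wild-type Col-0 globular embryos, on 8 plates of 93 nuclei each, with no treatment and no mutant. Seeds were dissected from pooled siliques and nuclei were sorted by DAPI and GFP signals. The GFP was driven by the WOX2 promoter, in plants carrying pWOX2::H2B-GFP, pWOX2::tdTomato-RCI2b, so the sort sampled nuclei by the activity of that promoter. Nuclei under 100000 counts or 1000 detected features were dropped, which left 534 of 744.

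PRC2 places 3 methyl groups on lysine 27 of histone H3 and keeps developmental genes silent. A complex holds an SET-domain methyltransferase (CLF, SWN or MEA), a zinc-finger protein of the Su(z)12 type (EMF2, VRN2 or FIS2), the WD40 protein FIE and the histone-binding WD40 protein MSI1. LHP1 binds the mark, and VRN1 is a B3-domain DNA-binding protein that was found, like VRN2, for its role in keeping FLC silent after cold. In seeds, the complex of MEA, FIS2, FIE and MSI1 is known for its role in the endosperm.

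Nuclei were grouped by clustering on genes other than these and the related lists below, and a cluster was named from marker genes. Suspensor-like nuclei numbered 100 in clusters of 66 and 34, in which 9 and 8 of the 11 suspensor markers were read at least 10 percentage points more often than elsewhere. In the cluster of 40 quiescent-center-and-columella-like nuclei this held for 9 of 9 of its own markers and for 6 of 11 suspensor markers, with mean log2 differences from the other nuclei of 2.47 and -0.03. In the cluster of 57 seed-coat-like nuclei it held for 12 of 13 of its own markers and for 9 of 13 protoderm markers, with mean log2 differences of 1.92 and 0.86, and no cluster was named for the seed coat when 2000 variable genes were used. The 174 embryo-proper-like nuclei were made up of 52 replicating-like, 51 dividing-like and 71 vascular-like ones, and no cluster was named for protoderm or shoot meristem. In the vascular-like cluster 11 of 14 of its own and 4 of 15 dividing markers were read more often by that measure (mean log2 differences 2.05 and 0.56). In the replicating-like cluster this held for 14 of 15 of its own and 5 of 13 protoderm markers (2.11 and 0.38). With resolution 2, vascular-like nuclei numbered 44 and dividing-like ones 74. The remaining 163 nuclei were left unnamed, among them a cluster of 27, of which 21 came from plate 4. Median depth was 508346 counts and 3192 features in suspensor-like nuclei and 463681 counts and 2464 features in embryo-proper-like nuclei. RNA of the seed coat marker BAN, an enzyme of proanthocyanidin synthesis, was read in every class. It was found in 49.0% of suspensor-like and 62.1% of embryo-proper-like nuclei after thinning each nucleus to 100000 reads, against 91.2% of seed-coat-like ones. Its part in the results below was not tested. Each plate is the replicate, and since the labels do not say whether plates came from separate seed harvests, p-values measure the spread between plates. The genes described here took no part in the clustering, but the classes come from the same nuclei, so the tests are not independent of the grouping.

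VRN1 was the member most often read, in 217 of 534 nuclei, followed by CLF in 177, SWN in 145, EMF2 in 138, MSI1 in 118, LHP1 in 113, FIE in 92, VRN2 in 84, FIS2 in 28 and MEA in 17. Per kilobase of the longest annotated transcript, pooled levels over all retained nuclei were 121 CPM (counts scaled to a total of 1000000) for VRN1, between 17.7 and 30.5 CPM for CLF, LHP1, VRN2, FIE, MSI1, EMF2 and SWN, and 1.62 and 0.821 CPM for FIS2 and MEA. Most nuclei gave reads of few members, with a median of 2 of the 10 genes per nucleus and none in 82 nuclei. At least 1 gene of each of the 4 core parts of PRC2 was read in 8 nuclei. Of these, 4 lay in the unnamed cluster of 27 nuclei, 3 were suspensor-like and 1 was embryo-proper-like. That cluster had a median of 4425 features, against 2469.5 over all retained nuclei.

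**Figure D1:**
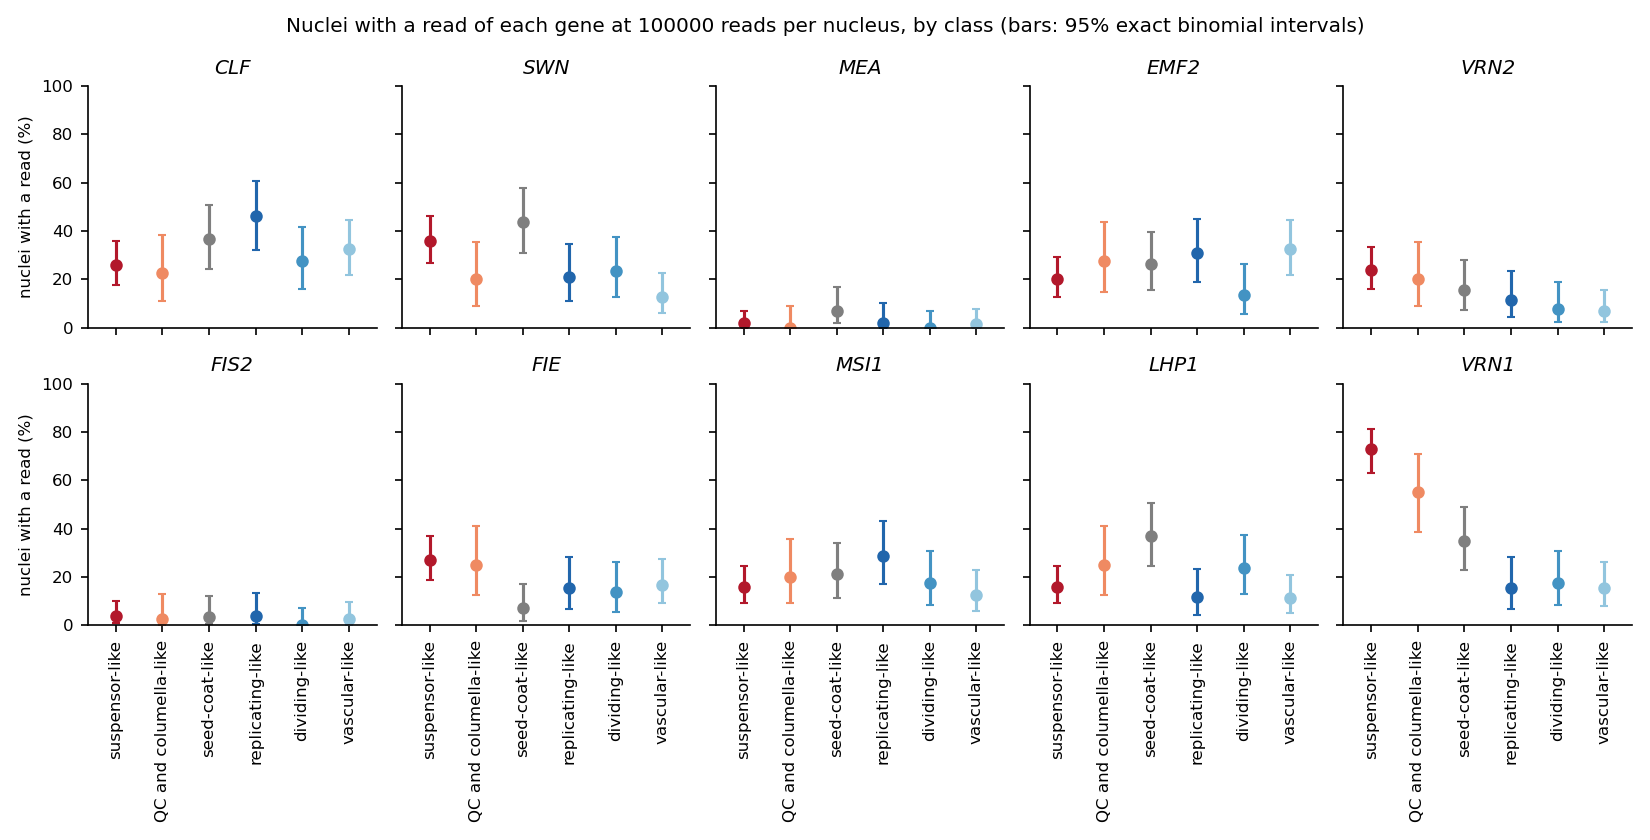
Share of nuclei with at least 1 read of each gene (y axis, %) in 6 classes of nuclei (x axis), every nucleus thinned to 100000 reads. Points are pooled shares and bars exact 95% binomial intervals, which cover counting error only. VRN1 was read in 73.0% of suspensor-like nuclei and in 15.4% to 17.6% of nuclei in the replicating-like, dividing-like and vascular-like classes, while no other member reached 50% in any class.

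VRN1 (AT3G18990) lies on chromosome 3 from 6548127 to 6552055 on the minus strand of TAIR10.1, with up to 7 exons and no overlapping gene. BMI1A (AT2G30580) encodes a RING-finger subunit of PRC1, the complex that ubiquitinates histone H2A. Both genes were higher in suspensor-like nuclei (below), so the 250 bases before their annotated starts are shown, as 5′ to 3′ on the strand of the gene from the RefSeq TAIR10.1 sequence, with the W-box core TTGAC or its reverse complement in capitals.
VRN1, chr3:6552056-6552305, minus strand: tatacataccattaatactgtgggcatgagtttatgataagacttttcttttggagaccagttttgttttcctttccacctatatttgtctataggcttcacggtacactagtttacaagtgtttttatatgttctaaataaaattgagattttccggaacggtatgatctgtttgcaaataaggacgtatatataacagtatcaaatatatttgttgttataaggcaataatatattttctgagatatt
BMI1A, chr2:13025661-13025910, plus strand: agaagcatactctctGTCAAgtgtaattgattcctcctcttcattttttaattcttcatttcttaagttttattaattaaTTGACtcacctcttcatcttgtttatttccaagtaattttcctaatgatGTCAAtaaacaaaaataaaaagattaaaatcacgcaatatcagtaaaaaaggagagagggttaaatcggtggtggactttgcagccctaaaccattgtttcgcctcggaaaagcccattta
The VRN1 window held none of the 5 motifs searched on both strands, which were the W-box core TTGAC, the RY motif CATGCA bound by many B3 proteins, the telobox AAACCCTA, the GA repeat GAGAGAGA and the G-box CACGTG. The BMI1A window held 3 copies of the W-box core, at 235, 170 and 121 bases before the annotated start, and none of the other motifs. The window of its paralog BMI1B held none of the 5 motifs. At least 1 copy of the W-box core occurred in 44.9% of the 27443 windows of protein-coding genes, of the RY motif in 8.43%, of the telobox in 4.49%, of the GA repeat in 4.91% and of the G-box in 6.49%. The share of windows with 3 copies of the W-box core was not computed. A match is a description of the sequence only.

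The suspensor is the basal, short-lived support of the embryo, and the embryo proper arises from the apical lineage. In suspensor-like nuclei, VRN1 rose relative to embryo-proper-like nuclei on 8 of 8 plates. The lowest, median and highest plate had 381, 599 and 781 CPM in suspensor-like nuclei, against 16.2, 71.9 and 129 CPM in embryo-proper-like nuclei. The groups did not overlap. The share of all genes tested without overlap was not computed, so no weight is given to this here or below. Means were 595 ± 139 CPM and 76.9 ± 44.8 CPM (SD, n = 8 plates). The log2 difference was 2.82 (SE 0.56, edgeR quasi-likelihood test, adjusted p = 0.000931), while the median of all 12270 genes tested lay at -0.61. Relative to that median the VRN1 difference was 3.44.

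Of the 8 members that passed the filter on low counts, VRN1 was the only one past the adjusted p of 0.05, and none was lower. Over all genes tested, 4.04% were called higher and 7.42% lower, and 1 call among 8 genes does not set the members apart as a group. Among genes that took no part in the clustering, 3.86% were called higher. VRN1 kept its call in all 9 alternatives and with each plate left out, where its log2 difference lay between 2.54 and 3.08.

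The share of nuclei with a VRN1 read does not depend on single nuclei with many reads. Per plate it had a lowest, median and highest value of 50.0%, 72.4% and 100% in suspensor-like nuclei, against 12%, 15.5% and 22.7% in embryo-proper-like nuclei. Again no plate of one class reached the other class. The mean difference was 56.3 percentage points, with an exact sign-flip permutation p of 0.00781, the smallest that 8 plates allow, and 0.0930 after adjustment over 22371 genes. No gene was under 0.05 after that adjustment, and 21.1% of genes had an unadjusted p under 0.05. The median gene differed by 0.53 points. In the limma fit of the same shares, VRN1 had an adjusted p of 1.10e-07.

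Both suspensor-like clusters contributed. VRN1 was read in 80.3% (53 of 66) of nuclei of the larger cluster, with a 95% exact binomial interval of 68.7% to 89.1%, and in 58.8% (20 of 34) of the smaller one, with an interval of 40.7% to 75.4%. The difference between the clusters was not tested. In the 4 unnamed clusters the share was 51.7% (of 29 nuclei), 48.1% (of 27), 40.9% (of 22) and 17.6% (of 85). The nucleus with the most VRN1 counts held 7.45% of those of the suspensor-like class. Of the 31-base words of VRN1 transcripts, 6.65% also occur in transcripts of other genes, nearly all in AT3G18970, whose log2 difference was 1.34 (SE 1.39, edgeR adjusted p = 0.633).

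**Figure D2:**
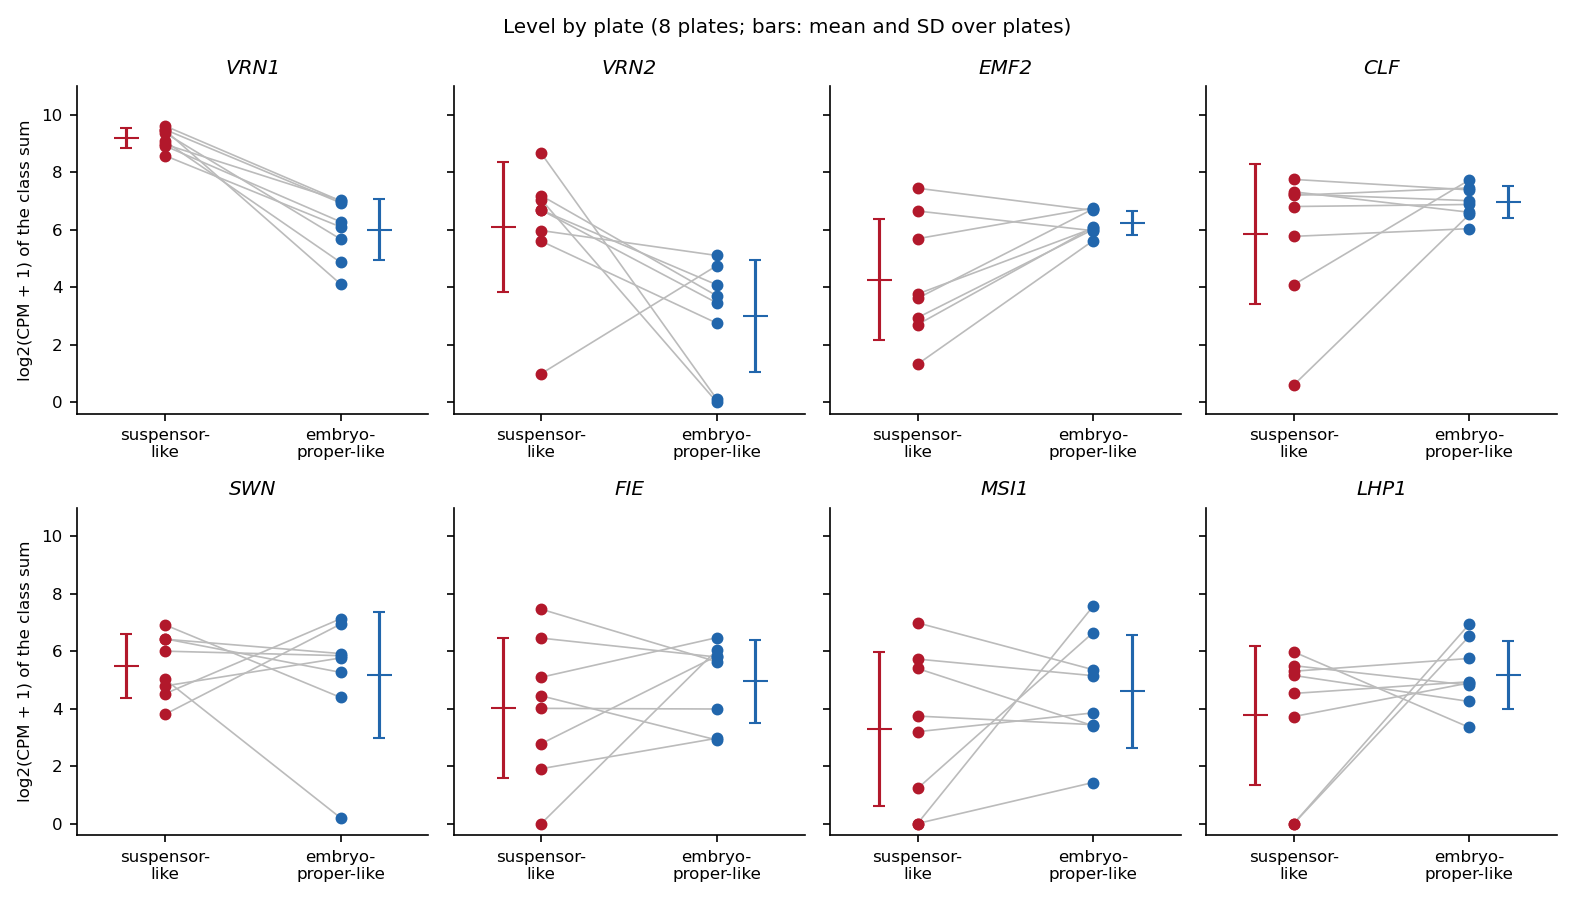
Level of the 8 members tested, as log2(CPM + 1) of the summed counts of a class (y axis), in suspensor-like (left, red) and embryo-proper-like nuclei (right, blue) of the same plate. Points are the 8 plates, lines join the classes of a plate, and bars give the mean and SD over plates. The VRN1 values of the classes do not overlap, and those of every other gene shown do. The share of all genes tested without overlap was not computed.

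The methyltransferases were read in both lineages. CLF (AT2G23380, chromosome 2, 9955092 to 9960386, plus strand of TAIR10.1) is the main methyltransferase of vegetative tissue. It had a lowest, median and highest plate of 0.510, 128 and 214 CPM in suspensor-like nuclei, against 64.6, 122 and 211 CPM in embryo-proper-like nuclei. These ranges overlap, and the log2 difference was -1.06 (SE 0.91, edgeR adjusted p = 0.537). SWN (AT4G02020, chromosome 4, 886580 to 891987, plus strand), which acts partly redundantly with CLF, had 13.0, 47.2 and 120 CPM in suspensor-like nuclei, against 0.147, 54.8 and 139 CPM in embryo-proper-like nuclei. Its log2 difference was -0.12 (SE 1.36, edgeR adjusted p = 0.978). The share of nuclei with a SWN read was higher in suspensor-like nuclei on 7 of 8 plates, at a mean of 31.9% and 18.2% (exact permutation p = 0.0312, adjusted p = 0.169), and the CPM did not follow it. The sign of the SWN log2 difference turned with library totals in place of TMM factors (0.27). MEA (AT1G02580, chromosome 1, 544733 to 549202, plus strand), the imprinted methyltransferase of the endosperm complex, did not pass the filter. It was read in 2 of 100 suspensor-like and 2 of 174 embryo-proper-like nuclei, in 5 of 57 seed-coat-like nuclei and in 4 of 27 nuclei of the unnamed cluster that came mostly from plate 4. In that cluster 4 of 11 endosperm markers were read at least 10 percentage points more often than elsewhere (mean log2 difference 1.69). This also held for 10 of 13 seed coat, 9 of 13 protoderm, 9 of 15 replication and 7 of 11 suspensor markers. These MEA counts are without thinning, and the cluster had a median of 4425 features.

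The Su(z)12-type proteins gave 1 high and 1 low value that fell short of the threshold. VRN2 (AT4G16845, chromosome 4, 9476069 to 9479878, plus strand), which acts with CLF and SWN after cold, had a lowest, median and highest plate of 0.984, 102 and 401 CPM in suspensor-like nuclei, against 0.00, 11 and 33.3 CPM in embryo-proper-like nuclei. The suspensor-like value was the higher on 7 of 8 plates, and the ranges overlap through plate 2. The log2 difference was 2.98 (SE 1.57, edgeR adjusted p = 0.255). Means of the thinned share were 22.5% and 9.42% (exact permutation p = 0.0469, adjusted p = 0.222). EMF2 (AT5G51230, chromosome 5, 20823644 to 20829644, plus strand), the member most used in vegetative growth, had 1.49, 11.9 and 173 CPM in suspensor-like nuclei, against 47.9, 66.0 and 107 CPM in embryo-proper-like nuclei. It was the lower on 6 of 8 plates, with a log2 difference of -2.53 (SE 1.18, edgeR adjusted p = 0.186). By share of nuclei EMF2 had means of 23.1% and 25.7%, with an exact permutation p of 0.617. VRN2 was called by DESeq2 (adjusted p = 0.0104) and by limma on mean log2 levels (0.0188), with 0.0521 by limma on shares, and EMF2 was called by DESeq2 (0.00440), so both calls depend on the tool. Over all 12270 genes tested, DESeq2 called 4460 and limma on mean log2 levels 3963. FIS2 (AT2G35670, chromosome 2, 14992565 to 14996756, plus strand), the endosperm paralog, did not pass the filter and was read in 7 of 100 suspensor-like and 8 of 174 embryo-proper-like nuclei.

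The shared WD40 subunits and the reader showed wide spreads between plates. FIE (AT3G20740, chromosome 3, 7248809 to 7252452, minus strand), present in every PRC2, had 0.00, 17.9 and 175 CPM in suspensor-like nuclei, against 6.51, 51.6 and 87.6 CPM in embryo-proper-like nuclei (log2 difference -1.06, SE 1.51, edgeR adjusted p = 0.745). MSI1 (AT5G58230, chromosome 5, 23556012 to 23558245, plus strand), which is also a subunit of the chromatin assembly factor CAF-1, had 0.00, 10.3 and 126 CPM in suspensor-like nuclei, against 1.69, 23.9 and 188 CPM in embryo-proper-like nuclei (log2 difference -1.61, SE 1.88, edgeR adjusted p = 0.676). LHP1 (AT5G17690, chromosome 5, 5827142 to 5829763, minus strand), the reader of the mark, had 0.00, 28.3 and 61.8 CPM in suspensor-like nuclei, against 9.17, 29.2 and 122 CPM in embryo-proper-like nuclei (log2 difference -1.16, SE 1.71, edgeR adjusted p = 0.755). The groups overlap for all 3 genes, and with standard errors over 1.5 on the log2 scale these data do not show that the levels were alike. MSI1 shares 6.39% of its 31-base words with its overlapping neighbour AT5G58240, whose log2 difference was -2.88 (SE 1.36, edgeR adjusted p = 0.192). Reads in shared words can be split between the genes, so the counts of MSI1 and VRN1 are uncertain to that extent. CLF, FIE, FIS2 and LHP1 also overlap a gene on the other strand, and Smart-seq2 libraries do not mark strand.

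**Figure D3:**
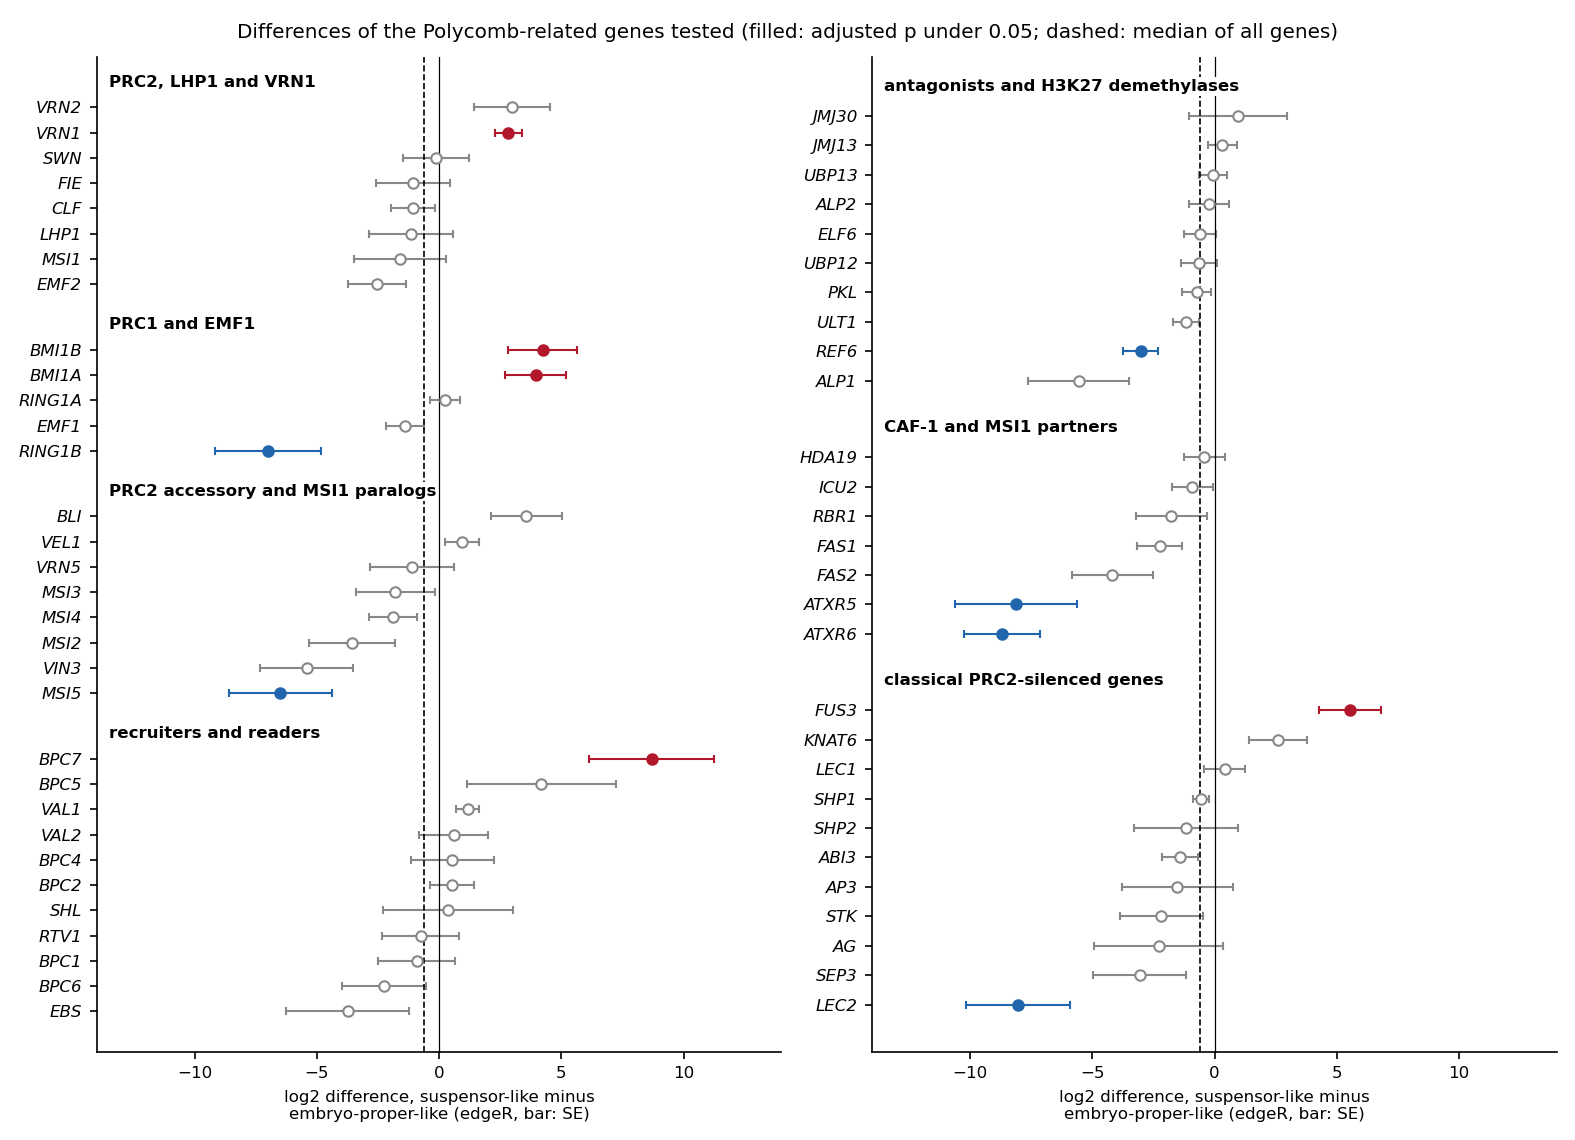
Log2 difference, suspensor-like minus embryo-proper-like, of every listed gene that passed the filter on low counts (x axis; bar: SE from edgeR), by list (rows). Filled points have an adjusted p under 0.05, red for higher and blue for lower, and the dashed line is the median of all genes tested, at -0.61. VRN1 has the smallest SE of its list, and VRN2 has a difference of like size with a wider one.

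Among genes that work with or against PRC2, calls in suspensor-like nuclei went in both directions relative to the embryo proper, and their counts stand beside 4.04% of all genes called higher, 7.42% lower and 11.5% either way. Nothing particular to these lists is read from so few calls. Of the 6 genes of PRC1 and EMF1, 5 were tested, of which 2 were higher, 1 was lower and 2 were not called. Their median log2 difference was 0.26, beside -0.61 over all genes. BMI1A had a lowest, median and highest plate of 79.6, 329 and 422 CPM in suspensor-like nuclei, against 0.00, 16.7 and 110 CPM in embryo-proper-like nuclei. On every plate the suspensor-like value was the higher, although the ranges overlap (log2 difference 3.94, SE 1.26, edgeR adjusted p = 0.0394). BMI1B, its close paralog, had 13.8, 163 and 412 CPM in suspensor-like nuclei, against 0.00, 9.44 and 76.6 CPM in embryo-proper-like nuclei (log2 difference 4.23, SE 1.41, edgeR adjusted p = 0.0499). RING1B, a RING-finger H2A ubiquitin ligase of PRC1, had 0.00, 0.00 and 22.8 CPM in suspensor-like nuclei, against 3.96, 9.43 and 30.5 CPM in embryo-proper-like nuclei (log2 difference -6.99, SE 2.17, edgeR adjusted p = 0.0347). RING1A and EMF1 were not called.

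These PRC1 calls were less firm than that of VRN1. Without the plate as a block, the edgeR adjusted p was 0.116 for BMI1A, 0.117 for BMI1B and 0.517 for RING1B. The BMI1A call was lost without plate 1, 2, 5 or 6 (adjusted p of 0.0511 to 0.0906), that of BMI1B without any plate but plate 8 (0.0551 to 0.0921) and that of RING1B without any plate but plate 7 (0.0580 to 0.0888). With stricter limits on nuclei the BMI1A call was also lost (0.0517). That of BMI1B was lost in 4 of 9 alternatives (0.0535 to 0.179) and that of RING1B in 4 of 9 (0.0602 to 0.517). By share of nuclei BMI1A was read in means of 68.2% and 9.62%, BMI1B in 40.8% and 11.1%, and RING1B in 1.97% and 18.4%. Without thinning, BMI1A was read together with VRN1 in 58 of 100 suspensor-like nuclei and in 7 of 174 embryo-proper-like nuclei. At least 1 of these 2 genes was read in 91 and 52 nuclei, respectively. Joint reading depends on how often each gene is read, so no co-expression is read from these counts.

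Among the other lists, calls were few. Of 8 tested PRC2 accessory genes and MSI1 paralogs, MSI5, a paralog of MSI1, was lower (log2 difference -6.49, SE 2.12, edgeR adjusted p = 0.0446), a call lost in 7 of 9 alternatives (0.0517 to 0.261, the highest without the block) and without any plate but plate 3 (0.0678 to 0.102). Of 11 recruiters and readers, BPC7, which binds GA repeats, was higher, with a lowest, median and highest plate of 0.00, 37.3 and 110 CPM in suspensor-like nuclei, against 0.00, 0.00 and 4.86 CPM in embryo-proper-like nuclei (log2 difference 8.69, SE 2.56, edgeR adjusted p = 0.0259). That call was lost without the block (0.104) and without plate 1, 3, 4, 6 or 8 (0.0521 to 0.0811). VAL1, a B3 protein that recruits PRC complexes, had means of 617 ± 247 CPM and 208 ± 89.1 CPM, the suspensor-like value being above the other on 8 of 8 plates, and was not called (log2 difference 1.17, SE 0.46, edgeR adjusted p = 0.102). RTV1, a relative of VRN1, was not called.

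REF6, which removes methyl groups from lysine 27 of H3, was the only one of 10 tested antagonists to be called. It had a lowest, median and highest plate of 6.81, 67.8 and 208 CPM in suspensor-like nuclei, against 54.3, 334 and 979 CPM in embryo-proper-like nuclei, and was lower on 8 of 8 plates, although the ranges overlap. The log2 difference was -3.02 (SE 0.72, edgeR adjusted p = 0.00560). Of the 7 genes listed as CAF-1 and MSI1 partners or replication-linked, ATXR5 and ATXR6, which place a single methyl group on the same lysine, were lower with log2 differences of -8.12 (SE 2.49, edgeR adjusted p = 0.0318) and -8.68 (SE 1.54, edgeR adjusted p = 0.000303). The ATXR5 call was lost without the block (0.0938), with 2000 variable genes (0.142), with no filter on low counts (0.0644) and without any plate but plate 2 or 3 (0.0680 to 0.0792). Fitted differences of this size belong to genes at or near 0 on most plates of one class and depend on the prior count, so they are no measure of fold. The embryo-proper-like nuclei included 52 replicating-like and 51 dividing-like ones, and ATXR6 was higher in replicating-like than in other embryo-proper-like nuclei (below). In the suspensor-like clusters of 66 and 34 nuclei, replication markers had mean log2 differences of -1.43 and -3.40, and mitosis markers of -3.53 and -3.77. Lineage and cell cycle cannot be told apart in this comparison, and the part of the cell cycle was not tested.

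Of 21 genes that PRC2 is known to silence in other organs or stages, 11 were tested, with FUS3 higher, LEC2 lower and 9 not called, beside 11.5% of all genes called either way. FUS3, a B3 regulator of embryo and seed maturation, had a lowest, median and highest plate of 161, 398 and 677 CPM in suspensor-like nuclei, against 0.00, 15.7 and 66.7 CPM in embryo-proper-like nuclei. The groups did not overlap (log2 difference 5.54, SE 1.28, edgeR adjusted p = 0.00407). LEC2, a related B3 regulator, had 0.00, 0.128 and 23.9 CPM in suspensor-like nuclei, against 41.2, 55.8 and 126 CPM in embryo-proper-like nuclei, again without overlap (log2 difference -8.04, SE 2.12, edgeR adjusted p = 0.0119, and 0.0569 without the block). The 10 genes of that list that were not tested include FLC, the target after which VRN1 and VRN2 were studied, which was read in 13 of 534 nuclei, and PI, read in 0 of 534, where a floor of 3 nuclei allows a share of nuclei with a read of up to 0.562%. SHP1 was read in 534 of 534 nuclei, unlike any other listed gene, and its counts are given no weight.

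The quiescent center and columella also descend from the basal lineage. In these nuclei VRN1 had a lowest, median and highest plate of 7.17, 311 and 834 CPM, against 16.2, 71.9 and 129 CPM in embryo-proper-like nuclei. The value was the higher on 7 of 8 plates, with a wide spread. The log2 difference was 1.24 (SE 1.02, edgeR adjusted p = 0.505), in a comparison in which the median of 10143 genes lay at -2.08 and 0.454% of genes were called higher and 2.92% lower. Relative to that median VRN1 differed by 3.32. By share of nuclei VRN1 was higher on 8 of 8 plates, at means of 54.8% and 16.1% (exact permutation p = 0.00781, adjusted p = 0.448). Fits of the mean log2 level per nucleus and of the share with limma gave VRN1 adjusted p of 7.82e-05 and 0.00973, so the call differs between these fits. No member was called by edgeR, and the lowest p was 0.0499, for CLF, at a log2 difference of -2.89 (SE 1.47), the 1 member under 0.05 before adjustment. Over all 10143 genes, 1897 were under 0.05 before adjustment. DESeq2 called 2 members there, CLF and MSI1, beside 3447 of all 10143 genes. Of the other lists only VIN3, a cold-induced PHD-finger partner of PRC2, was called (log2 difference -9.58, SE 3.04, edgeR adjusted p = 0.0489), a call lost in 8 of 9 alternatives and without any plate but plate 2 or 3 (0.0990 to 0.149).

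Between both basal classes VRN1 did not differ past the threshold. In a comparison chosen after these values were seen, the log2 difference of suspensor-like minus quiescent-center-and-columella-like nuclei was 1.41 (SE 0.76, edgeR adjusted p = 0.410), beside a median gene at 1.51 and 1.41% of genes called higher and 0.147% lower. VRN2 had a log2 difference of 5.59 (SE 2.39, edgeR adjusted p = 0.253) there, and was called by DESeq2 (0.000327), with 102 CPM on the median suspensor-like plate. DESeq2 called 2250 of all 8822 genes in this comparison. By the mean over plates, which weights plates equally, VRN1 levels were 595 CPM in suspensor-like, 374 CPM in quiescent-center-and-columella-like, 116 CPM in dividing-like, 73.2 CPM in vascular-like, 71.3 CPM in seed-coat-like and 50.4 CPM in replicating-like nuclei. Neighbours in this order overlap over plates. By share of nuclei seed-coat-like nuclei (35.1%) stood above dividing-like ones (17.6%), so the order among the last 4 classes depends on the measure.

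The seed coat is maternal tissue around the embryo. Seed-coat-like nuclei had a lowest, median and highest plate of 11.7, 81.0 and 112 CPM of VRN1, against 16.2, 71.9 and 129 CPM in embryo-proper-like nuclei (log2 difference -0.39, SE 0.98, edgeR adjusted p = 0.896). The median log2 difference of all genes tested lay at -0.65 in this comparison. The thinned share of VRN1 was higher on 8 of 8 plates, at means of 39.6% and 16.1%, and since the CPM did not follow, no order is read from it. SWN and LHP1 had shares of 43.7% and 38.4% in seed-coat-like nuclei, against 18.2% and 15.2% in embryo-proper-like nuclei. Their log2 differences were 0.43 (SE 1.07) and 0.67 (SE 1.06), with edgeR adjusted p of 0.898 and 0.822, and the median gene differed in share by 2.58 percentage points in the same direction. FIE had the lowest p of the members, at a log2 difference of -5.04 (SE 2.19, edgeR adjusted p = 0.188), with 89.2% of its seed-coat-like counts in 1 nucleus.

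No member was called by edgeR in that comparison, and 1 was under 0.05 before adjustment, beside 2309 of all 12248 genes tested. DESeq2 called FIE and EMF2, and both limma fits called SWN, LHP1 and VRN1. Over all 12248 genes tested, DESeq2 called 3520, limma on mean log2 levels 2865 and limma on shares 2392. Nothing particular to the members is read from these calls. By edgeR 1.95% of 12248 genes were called higher and 4.52% lower. Of the genes that PRC2 is known to silence, 2 were higher and 2 lower. SEP3, a MADS-box gene of flowers, had a lowest, median and highest plate of 155, 237 and 319 CPM in seed-coat-like nuclei, and its mean was 236 ± 55.3 CPM, against 29.1 ± 20.3 CPM in embryo-proper-like nuclei (SD, n = 8 plates; log2 difference 3.05, SE 0.90, edgeR adjusted p = 0.0320). STK, the MADS-box gene of ovule identity, averaged 390 ± 262 CPM and 53.8 ± 38.7 CPM (log2 difference 2.51, SE 0.68, edgeR adjusted p = 0.0192). Both were higher on 8 of 8 plates. SEP3 lost its call with stricter limits on nuclei (0.0551) and without plate 2, 3, 4, 5 or 7 (0.0521 to 0.0753) and STK without plate 3, 4 or 5 (0.0581 to 0.0756).

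The embryo genes LEC1 and ABI3 were lower in seed-coat-like nuclei, at 1.69 ± 4.10 and 37.8 ± 44.8 CPM, against 72.4 ± 43.3 and 177 ± 75.0 CPM in embryo-proper-like nuclei. LEC1 encodes a subunit of the nuclear factor Y and ABI3 a B3 protein. Their edgeR adjusted p were 0.00811 and 0.0423, and LEC1 lost its call in the limma fits of mean log2 levels (0.0626) and shares (0.305) and with stricter limits on nuclei (0.0574). ABI3 lost its call without the block (0.125), with library totals (0.0859), with stricter limits (0.0902) and without any plate but plate 4 or 7 (0.0548 to 0.131). ULT1, a trithorax-type antagonist of PRC2, and VIN3 were also lower, with log2 differences of -3.54 (SE 0.91, edgeR adjusted p = 0.0124) and -8.51 (SE 2.04, edgeR adjusted p = 0.00701). Without the block these adjusted p were 0.0790 and 0.186, and ULT1 had 0.0872 by limma on shares.

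Within the embryo proper, genes of chromatin assembly and replication differed between the cell cycle classes, and MSI1 was not called. The replicating-like and dividing-like classes were named from replication and mitosis markers. Differences of replication-linked genes between them are therefore not independent of that naming. Of the 7 genes listed as CAF-1 and MSI1 partners or replication-linked, 3 were higher in replicating-like nuclei than in other embryo-proper-like nuclei. There, 0.226% of 8863 genes were called higher and 1.50% lower. FAS1 and FAS2, the other subunits of CAF-1, had 545 ± 281 and 215 ± 172 CPM in replicating-like nuclei, against 135 ± 221 and 13.4 ± 24.3 CPM in the other nuclei (SD, n = 8 plates). Their log2 differences were 3.19 (SE 0.81) and 8.19 (SE 1.91), with edgeR adjusted p of 0.00717 and 0.00194, and ATXR6 had 6.18 (SE 1.19) with 4.00e-05. All 3 were higher on 8 of 8 plates, and all 3 calls were lost without the block (adjusted p of 0.825, 0.304 and 0.107). That of FAS1 was also lost with no filter on low counts (0.0524), with resolution 2 (0.0714) and without plate 2 or 3 (0.0741 and 0.0834), and that of FAS2 with stricter limits on nuclei (0.289).

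MSI1, the subunit that CAF-1 shares with PRC2, had 55.6 ± 108 CPM in replicating-like nuclei, against 37.8 ± 47.9 CPM in the other embryo-proper-like nuclei, higher on 4 of 8 plates (log2 difference -0.26, SE 1.89, edgeR adjusted p = 0.994). The median gene of that comparison lay at -1.09. In dividing-like nuclei 4 of 6 tested genes of that list were lower than in the other nuclei. There, 0.622% of 8684 genes were called higher and 1.12% lower, and the median gene lay at -1.53. Log2 differences were -9.38 for FAS1, -10.18 for FAS2, -9.12 for ICU2, the catalytic subunit of DNA polymerase alpha, and -10.11 for ATXR6. Their edgeR adjusted p lay between 2.25e-09 and 0.00177, and ICU2 lost its call without the block (0.271). MSI1 was read in 17.6% of dividing-like, 28.8% of replicating-like and 12.7% of vascular-like nuclei after thinning.

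**Figure D4:**
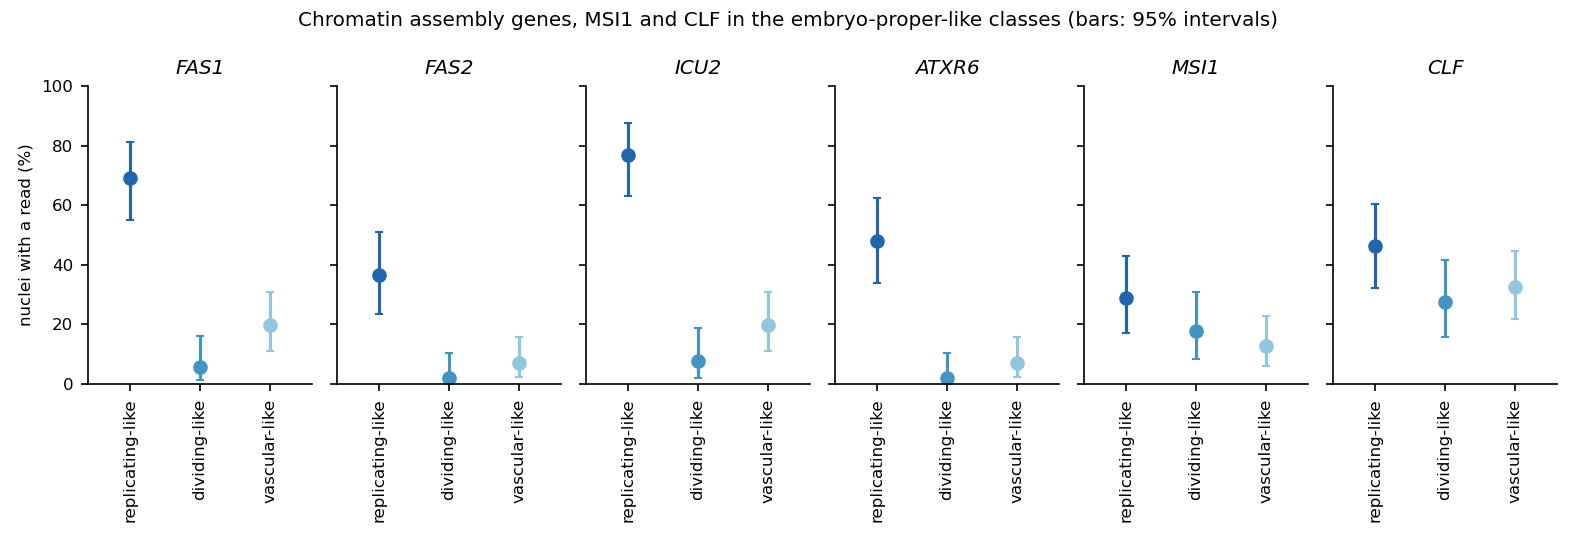
Share of nuclei with at least 1 read (y axis, %) of 4 genes of chromatin assembly and replication and of MSI1 and CLF, in the 3 embryo-proper-like classes (x axis), thinned to 100000 reads; bars are exact 95% binomial intervals. FAS1, FAS2, ICU2 and ATXR6 are highest in replicating-like nuclei, and the intervals of MSI1 overlap between classes.

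No member was called in replicating-like, dividing-like or vascular-like nuclei against the rest of the embryo proper by edgeR or limma, and 0 were under 0.05 before adjustment. Over all genes, 751 of 8863, 1180 of 8684 and 533 of 9311 were under 0.05 before adjustment by edgeR, in the same order. DESeq2 called LHP1 in replicating-like, FIE and EMF2 in dividing-like and SWN in vascular-like nuclei. Over all genes it called 1454, 2244 and 1037 in these comparisons. The lowest edgeR p of the members was 0.0764, for SWN in vascular-like nuclei (log2 difference -4.07, SE 2.30, edgeR adjusted p = 0.943). In that comparison the median gene lay at -0.78, 0.118% of 9311 genes were called higher and 0.333% lower, and none of the lists had a call. CLF was read in 46.2% of replicating-like, 27.5% of dividing-like and 32.4% of vascular-like nuclei, and EMF2 in 30.8%, 13.7% and 32.4%. The exact permutation p of the EMF2 share in dividing-like nuclei was 0.0312 (adjusted p = 0.653), on 1 plate higher and 6 lower.

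Over 37 sums of a class within a plate, the genes whose log2(CPM + 1) was most like that of VRN1 were HA1 (Pearson r = 0.78), a plasma membrane proton pump, ARR3 (0.72), a type-A response regulator of cytokinin signalling, and SBT3.12 (0.70), a subtilase, among 4268 genes. For EMF2 the first was the DNA methyltransferase MET1 (0.64), for CLF AT-HSFB2B (0.65), for SWN NTT1 (0.71), for MSI1 DHS1 (0.53) and for LHP1 AT2G30620 (0.69). These are descriptions, and the sums of a plate share their libraries.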

How the data were processed

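Per the labels and the study's methods, the authors trimmed reads with cutadapt 2.6 and estimated transcript abundance with kallisto. The deposited values are estimated counts per feature and nucleus, already whole numbers, and were used as deposited. Genes are on TAIR10, and positions and sequences come from RefSeq's TAIR10.1 annotation. Plates held 21257765 to 50998340 counts, and 46 to 83 nuclei per plate were retained. Nuclei were clustered with scanpy 1.11.5 (1000 variable genes, 15 components, 15 neighbours, resolution 1), no doublet caller was run, and clusters were named from 111 markers. Counts were summed per class and plate over at least 3 nuclei and tested with edgeR 4.0.16 (quasi-likelihood, TMM, plate as block, Benjamini-Hochberg adjustment over all genes). The standard error is the size of the log2 difference divided by the square root of F. Shares were compared by a two-sided exact sign-flip permutation test over plates. limma 3.58.1 and DESeq2 1.42.0 were alternatives. Fits were tested on simulated data.

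Every class was drawn from the same 8 plates, and the block matches the classes within a plate. The labels do not say whether a plate was a separate sort. Deviations of suspensor-like and embryo-proper-like sums of a plate correlated at 0.00616 to 0.107, over 0.1 on 1 of 8 plates. Named genes were the 10 members and every listed gene called in a comparison; VAL1, RTV1, RING1A, EMF1, FLC, PI and SHP1 were added after their values were seen. The members and lists were chosen with earlier results of these data known, and the comparison of both basal classes and the rule for naming clusters were chosen after values were seen.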

Additional observations from a re-analysis of the deposited data

Results flagged for a closer look

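Single plates lay far from the other 7 in 7 of 40 sets of plate values of the members, where the Dixon limit used gives about 1 in 20 by chance for continuous values. That rate does not hold for sets in which most plates were at or near 0, as in the 4 flagged sets of MEA and FIS2. Levels and shares of a gene also come from the same nuclei. In embryo-proper-like nuclei, FIS2 had a log2(CPM + 1) of 3.33 on plate 3, against 0.00 to 0.83 on the others, from 105 counts. MEA had 3.29 there on plate 8 and a share of 8.70% (2 of 23 nuclei), with 0 on every other plate. In suspensor-like nuclei MEA had a share of 11.1% on plate 3 (1 of 9 nuclei), against 0 to 4% elsewhere. The MSI1 share in embryo-proper-like nuclei was 4.55% on plate 1, against 17.4% to 27.3%. SWN had a log2(CPM + 1) of 0.20 on plate 1 in embryo-proper-like nuclei, from 2 counts, against 4.39 to 7.13. VRN2 had 0.99 on plate 2 in suspensor-like nuclei, from 5 counts in 13 nuclei, against 5.6 to 8.65.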

How the results depend on the processing

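VRN1 in suspensor-like nuclei kept its direction and its call in all 9 alternatives and with each plate left out. Without the plate as a replicate block, genes called numbered 930 of 1406 (suspensor-like), 82 of 342 (quiescent-center-and-columella-like), 441 of 792 (seed-coat-like), 6 of 42 (vascular-like), 65 of 151 (dividing-like), 49 of 153 (replicating-like) and 34 of 137 (suspensor-like against quiescent-center-and-columella-like), the second number being the count with the block. In the same order, DESeq2 called 4460, 3447, 3520, 1037, 2244, 1454 and 2250 genes. Genes tested numbered 12270, 10143, 12248, 9311, 8684, 8863 and 8822. limma on mean log2 levels called 3963, 582, 2865 and 87 in the first 4 comparisons and 517 in the last, and limma on shares 3615 (suspensor-like), 2392 (seed-coat-like), 5 (vascular-like) and 263 (last). Stricter limits on nuclei gave 150, 27, 94 and 79 in the quiescent-center-and-columella-like, vascular-like, dividing-like and last comparisons, 2000 variable genes gave 745 and 210 in the quiescent-center-and-columella-like and last ones, and resolution 2 gave 75 in the vascular-like one. Leaving out 1 plate gave 1084 to 1295, 160 to 297, 538 to 654, 24 to 45, 107 to 149, 118 to 163 and 81 to 137 genes. The sign of SWN (-0.12) turned with DESeq2 (0.000735), library totals (0.27), limma on mean log2 levels (0.99) and on shares (0.138), and lay between -0.67 and 0.38 with a plate left out. FIE turned in both limma fits (0.36 on mean log2 levels and 0.0716 on shares), as did LHP1 (0.16 and 0.0366). The values of limma on shares are differences in the fraction of nuclei with a read, not log2 differences. The causes were not tested. With library totals the median gene lay at -0.25 in place of -0.61 in suspensor-like nuclei. With 2000 variable genes no cluster was named for the seed coat, and the protoderm comparison was not run since no such class was found. The classes held 3 to 25 nuclei per plate, apart from the unnamed clusters and the embryo proper as a whole, and standard errors of 1 or more on the log2 scale were common among the members.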
